A study of Arabidopsis thaliana with 2 samples.

Results

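RALF peptides (rapid alkalinization factors) are small, cysteine-rich signals that plant cells secrete into the wall. Many bind receptor kinases of the CrRLK1L family, with FERONIA the best known, together with membrane-anchored co-receptors. In seedlings they are known for raising the pH of the wall, slowing root growth, shaping root hairs and tuning immune signalling, and other members act in pollen and the stigma. RALFL is the symbol given to the RALF-like genes, and the probe sets annotated with it are described here.

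Members were chosen by annotated symbol: every probe set assigned to a single gene whose symbol starts with RALFL, with the brightest probe set kept for each locus. That gave 10 loci among 13333 with a single-gene probe set. Each had 1 probe set, so brightness decided nothing. The family was taken up with its difference between these arrays already known, so the differences below are a description and carry no test. An 11th probe set bears the symbol RALFL22, but its gene identifier has no match in the RefSeq table, so it is counted apart. The RefSeq table lists 34 RALF genes, and the other 23, among them RALF1 and RALF23, were not analysed here.

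RNA came from whole 7-day-old Col-0 seedlings of Arabidopsis thaliana, grown untreated on agar medium with 1% sucrose and genotyped singly by PCR. The double expressor carries AD-HIFCOOD and GBD-pVHL, and the triple expressor carries both of these and PHD3, so all seedlings hold a part of the sensor and no plant without it is compared. HIF is the animal factor of the low-oxygen response, PHD3 an enzyme that hydroxylates it when oxygen is present, and pVHL the protein that then binds it. Neither the promoters of the transgenes nor the number of lines or seedlings is stated in the labels, and transgene levels were not analysed here. Each genotype has 1 Affymetrix array. Replicate error is therefore unknown, no difference between the arrays was tested, and the differences compare these 2 arrays rather than the genotypes.

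Values are log2 RMA levels, where a difference of 1 is a doubling, and differences are triple minus double expressor. A floor was set at 5.71, the 40th percentile of all gene probe set values, and a gene counts as at or above it by its brighter array. Bacterial and phage hybridisation controls were higher on the triple array for 15 of 18 probe sets, by 0.16 in the median, and ranged from -0.12 to 0.37. The 145 loci with several probe sets gave a standard deviation of 0.20 per probe set, and the 60 with both above the floor gave 0.17. This SD covers disagreement between probe sets of a gene on the same arrays, not variation between plants, extractions or arrays.

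All 10 RALFL genes were higher in the triple than in the double expressor as deposited, and 9 after each array was centred on its median, which turned RALFL25 to -0.02. Their median difference was 0.26 on the log2 scale, from 0.02 for RALFL25 to 0.71 for RALFL27, while the median of all loci was -0.0034. Median centring took these medians to 0.22 and -0.04. Without it, 47.9% of all loci were higher in the triple expressor. The 6 genes at or above the floor had a median of 0.29, and 52.9% of all loci at or above the floor were higher. Of those 6 genes 5 were higher by more than the SD per probe set of 0.17, as were 21.9% of all loci at or above the floor. RALFL27 passed the floor through the triple array alone, so its place among the genes above the floor follows from its higher level there. In whole-seedling RNA a change in the share of a cell type and a change of RNA per cell cannot be told apart.

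**Figure D1:**
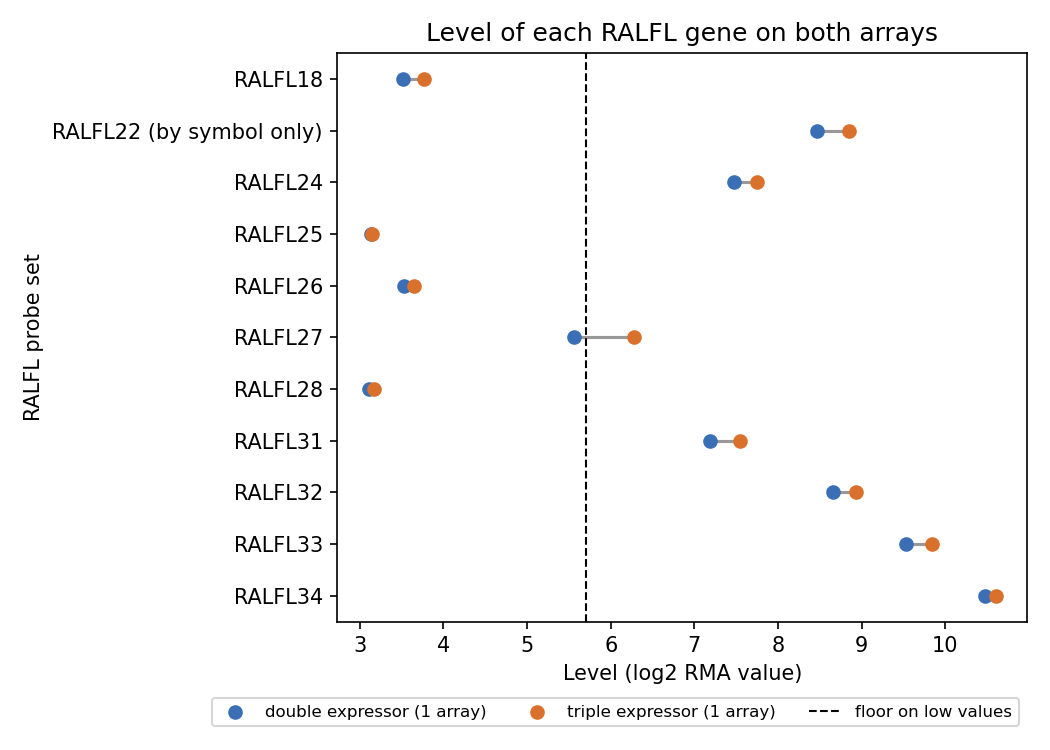
Level of each RALFL probe set (log2 RMA value, horizontal axis) on the array of the double expressor (blue) and of the triple expressor (orange), 1 array each, with the floor of 5.71 as a dashed line. The triple value lies to the right for every probe set, by 0.71 for RALFL27 and by 0.02 for RALFL25 (-0.02 after median centring), and 4 probe sets lie left of the floor on both arrays.

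RALFL27 (AT3G29780, chromosome 3) differed most. Its double expressor level of 5.56 lay just below the floor, and its triple expressor level of 6.27 above it. The difference of 0.71 is 1.63-fold, from 47.3 to 77.4 on the unlogged scale. It was the only member at least 1.5-fold apart, 1 of the 6 genes at or above the floor. Of all loci at or above the floor, 1.52% were at least 1.5-fold higher. As RALFL27 is counted there through its triple level alone, the 2 shares are not compared. No member reached 2-fold, which 0.175% of loci at or above the floor did in that direction. Because RALFL27 is dim, adding 32 to the unlogged values lowered its difference to 0.46, under 1.5-fold.

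Some members have known receptors or functions in growing tissue. RALFL33 (AT4G15800, chromosome 4) encodes a FERONIA-binding peptide that, like RALF23, dampens immune signalling. Its level was 9.53 on the array of the double expressor and 9.84 on the other, a difference of 0.31 or 1.24-fold. RALFL34 (AT5G67070, chromosome 5) encodes a ligand of the receptor kinase THESEUS1 that acts in lateral root initiation. It was at 10.47 and 10.61, a difference of 0.14 or 1.10-fold. Among the genes at or above the floor RALFL34 had the smallest difference, below the SD per probe set of 0.17, and RALFL33 was at 1.79 times that SD.

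RALFL22, whose peptide binds LRX proteins and pectin in the wall of root hairs, had a level of 8.47 on the double array and 8.85 on the triple array. Its difference of 0.39, or 1.31-fold, would be the second in size among the family. With it added, 11 of 11 probe sets were higher and the median was 0.27.

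The remaining genes at or above the floor went the same way. RALFL31 (AT4G13950) was at 7.19 and 7.55, a difference of 0.36. RALFL32 (AT4G14010), which like it lies on chromosome 4, was at 8.66 and 8.93, a difference of 0.27. RALFL24 (AT3G23805, chromosome 3) was at 7.48 and 7.75, also 0.27 apart. These 3 genes are thus 1.28-fold, 1.21-fold and 1.20-fold higher, a narrow range compared with RALFL27.

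The last 4 genes lay below the floor on both arrays, where low levels were not separated from background. RALFL18 (AT2G33130, chromosome 2) was at 3.52 and 3.76, the only difference among them above 0.2, and with 32 added to the unlogged values it fell from 0.25 to 0.07. RALFL25 (AT3G25165) and RALFL26 (AT3G25170), on chromosome 3 with 1 gene between them, encode pollen peptides that act on the stigma. RALFL25 was at 3.13 and 3.15, and RALFL26 at 3.53 and 3.65, where the same addition took a difference of 0.11 to 0.03. RALFL28 (AT4G11510) was at 3.11 and 3.17. The median difference of these 4 genes was 0.09, against -0.03 for all 5900 loci below the floor.

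Set beside genes of similar level, a single RALFL gene rarely stood out. Loci were divided by mean level into 5 classes of equal size, and the central 95% of differences was taken in each. RALFL27 lay above that range in class 3, which ran from -0.48 to 0.59, and 1.20% of the class had a larger difference. The other 9 lay inside the range of their class, though all 10 were above the class median. RALFL33 and RALFL32 lie in class 5, from -0.34 to 0.41, where 5.77% and 7.54% of loci had larger differences. In class 4, from -0.37 to 0.47, the shares were 5.89% for RALFL31 and 11.5% for RALFL24. For RALFL34 23.6% of its class had larger differences, and for RALFL25 36.1%.

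**Figure D2:**
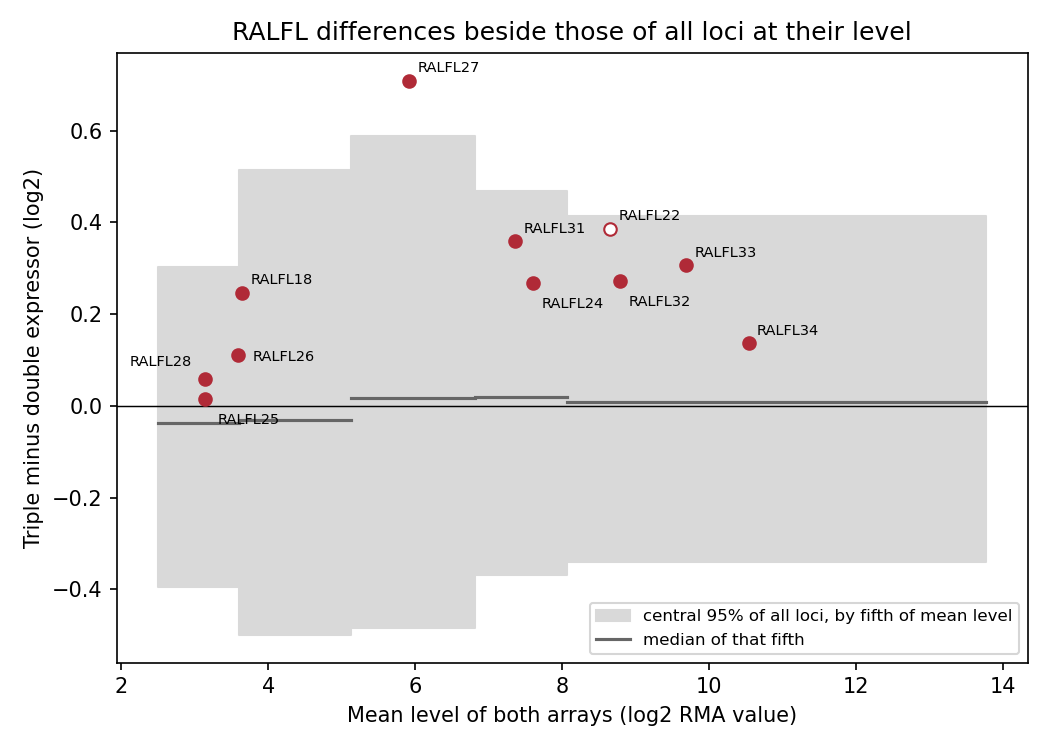
Difference between triple and double expressor (log2, vertical axis) against the mean level of both arrays (log2 RMA value) for each RALFL gene (filled) and RALFL22 (open), over the central 95% (grey band) and median (line) of all loci in 5 level classes. RALFL27, at 0.71, is above the band of its class, and the other points lie inside theirs and above its median.

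The genes lie on 4 chromosomes: 1 on chromosome 2, 4 on chromosome 3, 4 on chromosome 4 and 1 on chromosome 5. Gene order was taken from the RefSeq table of TAIR10.1, and the nearest measured gene on each side was looked up. RALFL25 and RALFL26 are each other's nearest measured gene on one side. Of 18 neighbours outside the family, 6 were higher and 12 lower in the triple expressor. Their median was -0.05, with values from -0.39 to 0.33. Over all loci 47.9% were higher. Many neighbours lay below the floor, where the median of all loci was -0.03 and 2454 of 5900 were higher. Neighbours at or above the floor went both ways. The lowest was AT3G25160, directly before RALFL25 and below the floor at 4.26 and 3.87. The highest was AT4G13860, before RALFL31 with 13 genes between. RALFL32 has a measured gene directly on each side, AT4G14000 at -0.06 and AT4G14020 at 0.08, against its own 0.27.

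**Figure D3:**
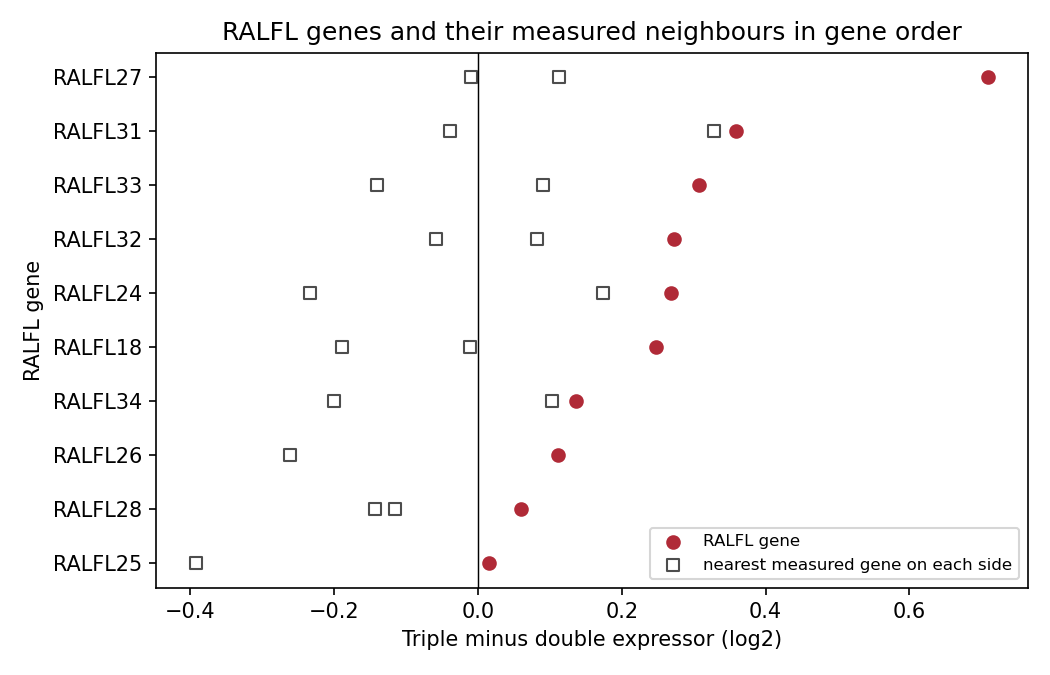
Difference between triple and double expressor (log2) for each of the 10 RALFL genes (red) and the nearest measured gene on each side of it in gene order (open squares), except that RALFL25 and RALFL26 are each other's neighbour on one side and have 1 square each. Of the 18 neighbours 12 lie below 0, and the values of all 18 run from -0.39 to 0.33. Genes below the floor are drawn like the others.

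The genes through which RALF peptides act were looked up by locus, in a list of 46 genes of which 18 were measured. Of these 11 were higher and 7 lower, with a median of 0.05. After median centring 10 were higher with a median of 0.01 (12 higher after lowess centring). Over all loci 47.9% were higher with a median of -0.0034, which median centring took to -0.04. Among the 9 pathway genes at or above the floor, MRI and LRX5 passed it through the triple array alone and LRX4 through the double array alone. No direction is therefore read from that subset. Among CrRLK1L receptors, FERONIA (FER) went from 9.76 in the double to 9.94 in the triple expressor, a difference of 0.18. THESEUS1 (THE1), the receptor of RALFL34, was at 7.67 and 7.62, a difference of -0.06. CVY1, a further kinase of that family, differed by 0.21. The pollen tube receptors lay below the floor, with ANX1 at -0.15, ANX2 at 0.08, BUPS1 at -0.10 and BUPS2 at -0.13.

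LRX proteins anchor RALF peptides in the wall and went both ways, with 4 higher and 3 lower of 7 measured. Of all loci 47.9% were higher. LRX5, which acts in vegetative tissue with LRX4, was 0.27 higher, while LRX4 was 0.23 lower. LRX7 (-0.27), LRX8 (0.05), LRX9 (0.21), LRX10 (0.04) and LRX11 (-0.04) lay below the floor. S1P, the protease that cuts some RALF precursors, was at 6.98 and 7.02 and so differed by 0.03.

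Both measured kinases inside the cell were higher, as were 47.9% of all loci. MRI (MARIS, AT2G41970), which acts downstream of CrRLK1L receptors in root hairs and pollen tubes, was at 5.36 on the double array and 5.90 on the triple array. Its difference was 0.54, or 1.45-fold, and like RALFL27 it lay below the floor on the double array. BIK1, a kinase of immune receptor complexes, was at 7.79 and 8.12, a difference of 0.34. CML38, a calmodulin-like protein that binds the RALF1 peptide and is also a known hypoxia gene, was 1.84-fold higher and the only gene of the list past 1.5-fold. Its levels were 5.72, just above the floor of 5.71, and 6.60. Of all loci at or above the floor, 1.52% were at least 1.5-fold higher. The co-receptors of the LLG group, ROP GTPases and their exchange factors, proton pumps, NADPH oxidases and phosphatases of the list were not analysed here.

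Because several RALF genes are known from roots or pollen, tissue markers are given beside the family. All 3 measured root hair markers of 14 listed were higher: EXPA7 by 0.46, EXPA18 by 0.40 and the peroxidase gene AT4G26010 by 0.50. Both measured root markers of 8 listed were higher, PYK10 by 0.16 and AT3G01190 by 0.27. Green shoot markers were higher in 5 of 6 measured (4 after median or lowess centring), with a median of 0.10 and values from -0.03 to 0.23. LHCB4.2 was at 0.11, RCA at 0.10, FMA at 0.10 and MUTE, below the floor, at 0.23. All 4 measured pollen markers of 18 listed lay below the floor, 2 higher and 2 lower, with AT5G45880 at 0.18, MGH3 at -0.16, ANX1 at -0.15 and ANX2 at 0.08. Root hair, root and most green shoot markers thus went the same way as the RALFL genes. So did 47.9% of all loci and 52.9% of those at or above the floor, and each list had few measured genes. The part of these markers in the RALFL differences was not tested.

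**Figure D4:**
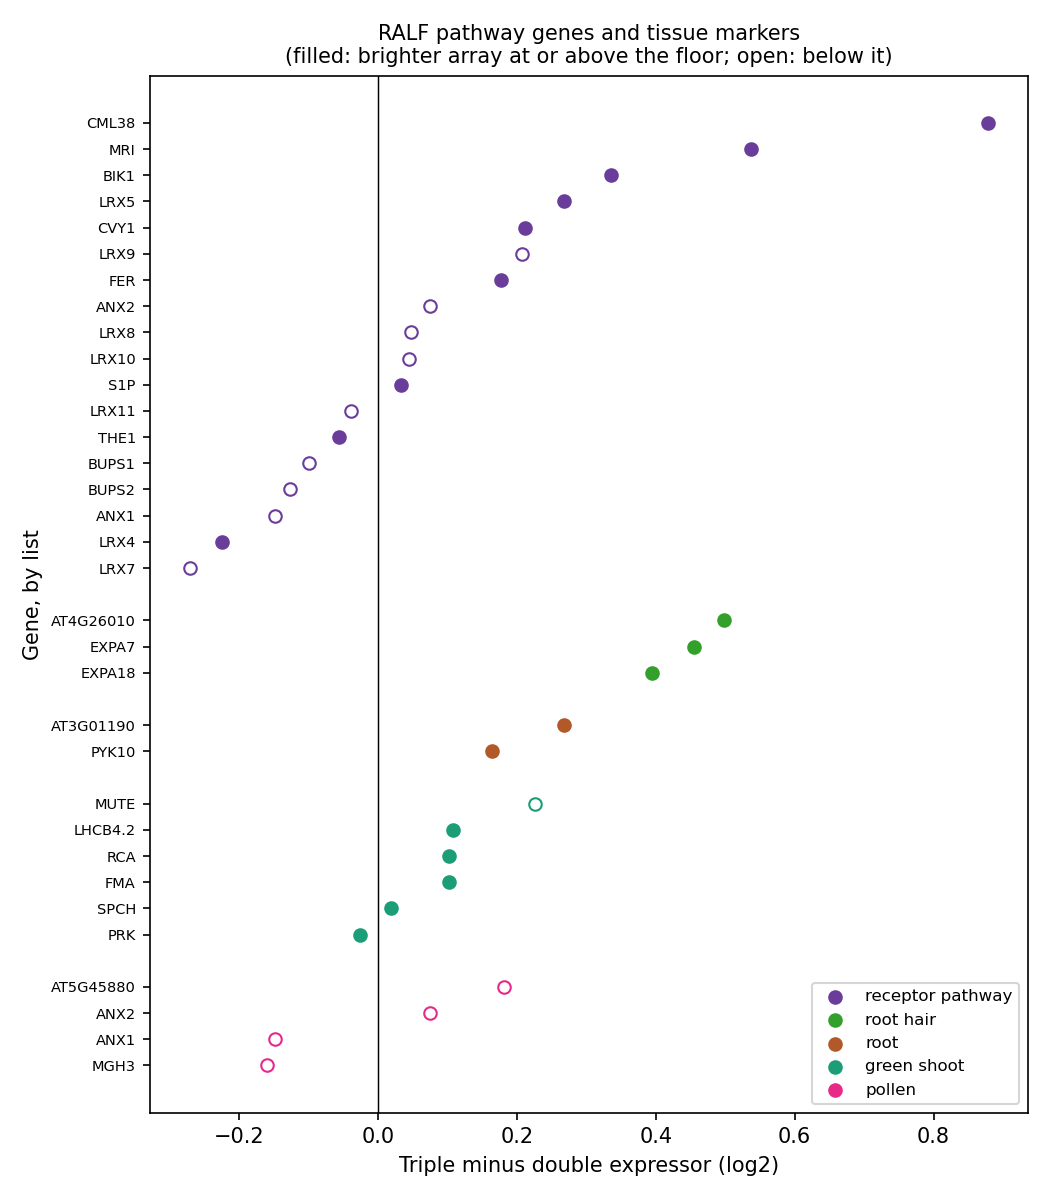
Difference between triple and double expressor (log2, horizontal axis) for 18 genes around RALF peptides and for root hair, root, green shoot and pollen markers, filled where the brighter array is at or above the floor and open where it is below. CML38 (0.88) and MRI (0.54) are at the right end of the pathway list and LRX7 (-0.27) at the left end, and the 3 root hair markers lie between 0.40 and 0.50.

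Other families of secreted peptides were taken by symbol for comparison. Of 5 CLE genes, which encode short peptides of stem cell and vascular signalling, 2 were higher and 3 lower, with a median of -0.06, from CLE40 at -0.17 to CLE44 at 0.13. Of 8 LCR genes, which encode small cysteine-rich secreted proteins, 7 were higher and 1 lower (6 higher after median centring and 8 after lowess centring), with a median of 0.11 (0.03 with 32 added to the unlogged values), from LCR67 at -0.03 to LCR24 at 0.35. Below the floor lay 6 of the 8 LCR genes, LCR67 and LCR24 among them, and 3 of the 5 CLE genes. The share of all loci that were higher was 47.9%, and below the floor 2454 of 5900 were. At or above the floor only 2 genes of each family were measured, at 0.12 and 0.13 for CLE41 and CLE44 and at 0.06 and 0.31 for LCR69 and LCR68. With 1 array per genotype the difference between RALFL and these families was not tested.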

How the data were processed

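The deposited table holds log2 values for 22810 probe sets on each of 2 arrays, deposited by the authors as RMA output, per the submitters' processing notes. Software and version are not stated in the labels. The log2 scale was read from the range of the values (2.39 to 14.33). RMA equalises probe intensity distributions between arrays, which hides any shift common to most genes. The 64 control probe sets were kept out. Probe sets were named from the platform annotation, which can be old, and matched to RefSeq (TAIR10.1) by gene identifier or by a symbol that is a locus code. Of 22746 gene probe sets, 13513 name 1 gene, 503 several and 8730 none. No coordinates are given, as no build is named for the probes.

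With 1 array per genotype no model was fitted, and the number of arrays limits the precision. Levels, differences, counts and medians were computed in Python 3.11.15 with numpy 2.4.6, pandas 2.3.3, statsmodels 0.14.6 and matplotlib 3.10.9, and the code that counts loci past a fold was checked on simulated differences of known size. Members and lists were chosen with earlier results of these data known. Named genes are all RALFL genes, all measured pathway genes, up to 4 markers per list by size of difference, and the highest and lowest of each peptide family; CLE41, LCR68 and LCR69 were added after their values were seen. No locus with a single-gene probe set had a symbol starting with GASA, so that peptide family was not analysed here. Neither detection calls nor array dates were used.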

Additional observations from a re-analysis of the deposited data

How the results depend on the processing

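The RALFL median of 0.26 stayed between 0.18, on the scale with 32 added to the unlogged values, and 0.29, over genes at or above the floor. RALFL27 is among those genes through its triple level alone. At the 60th percentile floor of 7.16, which leaves RALFL27 out, the median was 0.27. RALFL22 added and RALFL27 left out (median 0.25) were chosen after seeing the data. Centring each array on its median shifts all differences by -0.03 and gave 9 RALFL genes higher and 1 lower, and lowess centring (span 0.3) gave 10 higher. The count past 1.5-fold went from 1 to 0 with 32 added, at a 60th percentile floor of 7.16 and at 2-fold. Restricting to genes at or above the floor, which by construction keeps fewer, left 6 RALFL, 7 pathway and 2 LCR genes higher, and the 60th percentile left 5 RALFL, 2 pathway, 1 root hair, 2 green shoot, 1 CLE and 2 LCR genes higher. The CLE median turned from -0.06 to 0.12 over its 2 genes above the floor. Each RALFL locus has 1 probe set and none is named for cross-hybridisation, so those alternatives say nothing about the family. No replicate could be left out. No paired analysis was possible because there is 1 array for each genotype.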
